A study of Mus musculus with 6 samples.

Results

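The genes described here are 10 identity genes of cell types other than smooth muscle, 5 of immune cells (Ptprc, Spi1, Csf1r, Aif1 and Cd68) and 5 of endothelial cells (Pecam1, Cdh5, Tek, Tie1 and Emcn), chosen by name as a check of cell composition. They are 10 of 21938 protein-coding genes, and their windows, each the gene body plus 10 kb on both sides, held 40 of 66678 accessible regions. Chromatin accessibility was measured by ATAC-seq, in which the Tn5 transposase inserts sequencing adapters into open DNA, in primary oviductal smooth muscle cells of pregnant mice at day 2. The 3 libraries labelled WT came from control mice, which in the study are Pbrm1 fl/fl littermates, and the 3 labelled Pbrm1 cKO came from Pbrm1 fl/fl mice that also carry PR IRES-cre. Pbrm1 encodes a subunit of the PBAF form of the SWI/SNF chromatin remodeller, and the Cre is expressed from the progesterone receptor gene, so the deletion is limited to cells in which that gene is or was active. Mice were 8 to 12 weeks old and mated. Oviducts were digested with enzymes, the cells were filtered and held in culture for a few hours, and 50000 cells entered each library without a sort for any cell type. Whether a library holds 1 animal or several pooled ones was not given in the sources used here, and the peak lists do not show whether Pbrm1 was deleted.

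A regulatory element is usually open only in the cell types that use it, so immune and endothelial genes can reveal other cells in a preparation of muscle. Ptprc encodes CD45, the surface phosphatase of nucleated blood cells, and Spi1 encodes PU.1, an ETS family transcription factor of myeloid and B cells. Csf1r is the receptor for macrophage colony-stimulating factor, Aif1 encodes an actin-binding protein of macrophages, and Cd68 encodes a glycoprotein of the macrophage lysosome. Pecam1 and Cdh5 encode adhesion proteins of endothelial junctions, Cdh5 being VE-cadherin. Tek is the angiopoietin receptor, Tie1 its close relative and partner, and Emcn encodes endomucin, a mucin of the endothelial surface. Broadly used promoters are open in most cell types, so a region near 1 of these genes need not belong to it. In a bulk library, fewer cells of a type and less accessible chromatin per cell cannot be told apart.

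The sequences of 8 regions are given here because the results below turn on them. Each region lies either at a start of the gene or is the best-ranked of those nearest to it, and the stretch printed holds no exon. Each line holds 300 bases of the plus strand of the GRCm38 reference around the summit of the pooled peak, 5′ to 3′, in lower case with motif matches in capitals.
Ptprc intron, chr1:138136472-138136771: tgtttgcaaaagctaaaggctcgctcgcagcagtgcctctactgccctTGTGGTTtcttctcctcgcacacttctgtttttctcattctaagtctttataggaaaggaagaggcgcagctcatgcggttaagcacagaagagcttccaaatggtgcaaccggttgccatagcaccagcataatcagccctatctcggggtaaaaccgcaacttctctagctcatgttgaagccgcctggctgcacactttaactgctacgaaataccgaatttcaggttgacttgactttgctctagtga
Spi1 intron, chr2:91101480-91101779: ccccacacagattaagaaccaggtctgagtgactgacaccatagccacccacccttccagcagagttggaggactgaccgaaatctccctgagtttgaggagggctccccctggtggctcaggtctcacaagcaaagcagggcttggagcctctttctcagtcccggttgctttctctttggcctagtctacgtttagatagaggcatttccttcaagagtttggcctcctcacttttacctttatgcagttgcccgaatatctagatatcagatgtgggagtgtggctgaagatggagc
Cd68 start, chr11:69666183-69666482: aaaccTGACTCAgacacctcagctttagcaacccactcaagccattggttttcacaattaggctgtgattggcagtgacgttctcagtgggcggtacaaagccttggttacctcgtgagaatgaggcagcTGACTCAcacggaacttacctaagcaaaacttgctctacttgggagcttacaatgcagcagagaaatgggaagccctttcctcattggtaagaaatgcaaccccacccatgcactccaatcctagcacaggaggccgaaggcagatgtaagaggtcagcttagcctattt
Pecam1 intron, chr11:106666435-106666734: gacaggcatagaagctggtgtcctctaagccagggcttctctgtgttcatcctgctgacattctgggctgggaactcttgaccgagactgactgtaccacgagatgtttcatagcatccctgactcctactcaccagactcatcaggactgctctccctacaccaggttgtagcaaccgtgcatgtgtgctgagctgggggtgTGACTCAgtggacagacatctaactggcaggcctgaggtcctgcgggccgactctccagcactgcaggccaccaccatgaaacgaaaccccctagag
Cdh5 intron, chr8:104121801-104122100: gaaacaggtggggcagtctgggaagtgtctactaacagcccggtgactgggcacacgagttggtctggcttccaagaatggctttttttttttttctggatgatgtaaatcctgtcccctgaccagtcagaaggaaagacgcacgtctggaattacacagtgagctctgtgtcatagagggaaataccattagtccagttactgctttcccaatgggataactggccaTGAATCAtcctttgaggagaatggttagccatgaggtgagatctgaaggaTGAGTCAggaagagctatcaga
Tek start, chr4:94738782-94739081: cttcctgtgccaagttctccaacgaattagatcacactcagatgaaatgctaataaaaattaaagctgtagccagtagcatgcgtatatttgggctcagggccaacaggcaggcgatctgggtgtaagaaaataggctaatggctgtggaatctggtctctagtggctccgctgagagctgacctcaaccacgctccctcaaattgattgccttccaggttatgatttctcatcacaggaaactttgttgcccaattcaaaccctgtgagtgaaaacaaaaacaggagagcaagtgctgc
Tek intron, chr4:94752533-94752832: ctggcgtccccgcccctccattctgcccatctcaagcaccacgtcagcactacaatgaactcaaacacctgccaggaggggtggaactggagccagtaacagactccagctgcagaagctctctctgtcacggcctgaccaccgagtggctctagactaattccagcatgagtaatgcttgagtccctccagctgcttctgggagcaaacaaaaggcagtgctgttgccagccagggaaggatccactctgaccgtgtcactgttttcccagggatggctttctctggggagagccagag
Emcn upstream, chr3:137332526-137332825: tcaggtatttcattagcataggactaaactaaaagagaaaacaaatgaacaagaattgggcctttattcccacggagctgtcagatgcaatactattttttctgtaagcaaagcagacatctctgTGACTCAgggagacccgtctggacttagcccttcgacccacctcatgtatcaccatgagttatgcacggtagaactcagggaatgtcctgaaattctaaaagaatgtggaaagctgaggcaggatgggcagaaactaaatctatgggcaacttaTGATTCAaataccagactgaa

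The motifs searched, on both strands, were the AP-1 motif, spelled TGANTCA, the PU.1 motif, spelled GAGGAAGT, and the ETS motif, spelled CCGGAAGT, which ends in the same letters as that of PU.1 but cannot match at the same place. The motif of the RUNX factors was spelled TGTGGTT. That of the GATA factors was spelled AGATAA, and the CTCF and CArG motifs are given by name. In these windows the capitals mark RUNX in the Ptprc intron and AP-1 at the Cd68 start, in the Pecam1 and Cdh5 introns and upstream of Emcn, and the Spi1 intron and both Tek windows held no match. Sequence was searched in 33 regions of the windows, which include regions nearest to another gene but none of Csf1r, which lies on chromosome 18. Of these, 11 (33.3%) held AP-1, the motif bound by Fos and Jun proteins, against 36.5% of the 64484 regions searched outside chromosome 18. RUNX was in 6 (18.2%) against 7.33%, GATA in 4 (12.1%) against 12.9%, CTCF in 3 (9.09%) against 5.28%, and CArG, the serum response element core, in 2 (6.06%) against 1.71%. The RUNX matches of the Aif1 window, and that of the Pecam1 window at the start of its neighbour Milr1, lay in regions nearest to another gene. PU.1 was in 1 region, the start of Mpdu1 in the Cd68 window, against 2.58%, and ETS in 0 against 1.99%. These matches are a description of the letters in windows of the same length.

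WT library 3 stood apart from the other 5 libraries. Its list had a median fold of 3.61 and a median of 8 tags per summit, against 4.43 to 4.87 and 13 to 14 tags in the others, and 71.1% of its entries had a q of 0.05 or less, against 91.9% to 100%. A tag is 1 Tn5 cut counted by the peak caller, and the number over a summit was recovered from its fold and p. Total reads per library are unknown here, and a gene that has no entry may still be open below a list's threshold.

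To ask how open the starts of the 10 genes were, every protein-coding gene was ranked in each library by its strongest entry within 1 kb of any transcription start, rank 1 being the strongest and 21938 the rank shared by genes without an entry. By mean rank the order was Cd68, Tek, Csf1r, Pecam1, Cdh5, Spi1, Tie1, Emcn, Aif1 and Ptprc, and the library values of every neighbouring pair in this order overlapped. The first 6 had an entry in all 6 libraries, Tie1 and Emcn in 4, Aif1 in 2 and Ptprc in 1. Among the immune genes, Cd68 had ranks of 11932, 8229 and 11445 in WT libraries 1, 2 and 3 and of 10817, 11009 and 11005 in Pbrm1 cKO libraries 1, 2 and 3, which places it near the median gene. Csf1r had ranks of 11861, 11433 and 11829 in WT and of 11542, 12472 and 12042 in Pbrm1 cKO libraries. Spi1 had ranks of 15450, 14224 and 15380 in WT and of 12858, 14747 and 12688 in Pbrm1 cKO libraries. The entries behind the Spi1 ranks were small, of 8, 11 and 6 tags in WT and of 19, 9 and 22 tags in Pbrm1 cKO cells, and they lay 609 to 760 bp inside the gene.

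The pan-leukocyte gene Ptprc and the macrophage gene Aif1 were at the bottom of this order. Ptprc had a start entry in WT library 2 only, with 6 tags and a rank of 15389. Aif1 had 1 in Pbrm1 cKO library 2, with 7 tags and a rank of 15400, and 1 in Pbrm1 cKO library 3, with 11 tags and a rank of 14045. The Aif1 entries lay at different transcription starts of the gene, and no WT library had an entry there.

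Among the endothelial genes, Tek had start ranks of 11313, 11882 and 11331 in WT and of 9680, 12784 and 11807 in Pbrm1 cKO libraries. Its entries held 28, 20 and 17 tags in WT and 41, 16 and 24 in Pbrm1 cKO libraries. Pecam1 had ranks of 11629, 11115 and 13097 in WT and of 12599, 12626 and 11786 in Pbrm1 cKO libraries. Its entry has a summit at −621 to −597 bp from its start and on the start of the neighbour Milr1, which encodes a mast cell receptor, so these values may belong to either gene. Cdh5 had ranks of 12447, 12826 and 14870 in WT and of 12324, 12711 and 13851 in Pbrm1 cKO libraries. In 5 libraries the Cdh5 entry lay by the alternative start inside the gene, and in WT library 3 the strongest entry, with 7 tags, lay at the main start. The Tie1 entry held 9 tags in WT library 1, 9 in WT library 2, 9 in Pbrm1 cKO library 1 and 6 in Pbrm1 cKO library 3. The Emcn entry held 12 tags in WT library 1, 5 in WT library 3, 8 in Pbrm1 cKO library 2 and 6 in Pbrm1 cKO library 3.

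**Figure D1:**
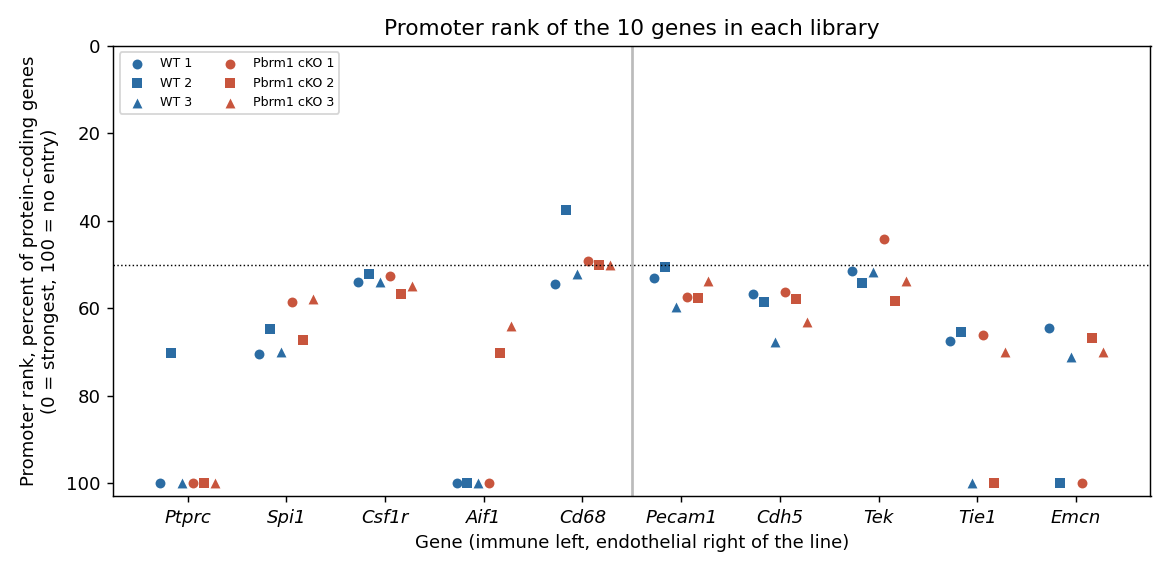
Promoter rank of each gene as a percent of 21938 protein-coding genes (vertical axis, 0 strongest, 100 no entry; dotted line at 50) for 3 WT (blue) and 3 Pbrm1 cKO (red) libraries. Ptprc and Aif1 sit at 100 in most libraries, whereas Cd68, Csf1r, Pecam1 and Tek lie close to the middle of all genes in both genotypes. The Pecam1 values may belong to its neighbour Milr1.

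No start of the 10 genes passed the test between genotypes. limma was fitted to the log2 of the number of genes over the rank, called the rank score, so that a difference of 1 means that the rank number is divided by 2. It called 89 of 21938 genes (0.406%) at an adjusted p under 0.05, and 0 of the 10, with 0 of 10 at an unadjusted p under 0.05 against 5.96% of all genes. The largest differences (Pbrm1 cKO minus WT) were those of Aif1, 0.38 (SE 0.18, limma adjusted p = 0.819), Ptprc, −0.17 (SE 0.16, limma adjusted p = 0.946), and Spi1, 0.16 (SE 0.07, limma adjusted p = 0.819). The libraries of the genotypes overlapped at all 10 starts, against 9.9% of all genes at which they did not. The Aif1 difference depended on 1 library: without Pbrm1 cKO library 1, which lacks the entry, it was 0.58 with a limma adjusted p of 0.0422. On simulated promoter ranks this fit called more unchanged genes than its nominal rate. The share over all genes includes 4764 genes (21.7%) without an entry in any library, which cannot differ. In a fit restricted to the 14712 genes with an entry in all 6 libraries, 6 genes were called, and 0 of the 6 members among them. At an unadjusted p under 0.05 that fit had 1162 of the 14712 genes and 1 of the 6 members.

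The start values were then set beside fixed lists for other cell types. A merged region lay within 1 kb of a start in 2 of 5 immune and 3 of 5 endothelial genes, against 62.8% of all protein-coding genes. The regions were at Csf1r and Cd68 and at Pecam1, Cdh5 and Tek. That of Pecam1 covers the start of Milr1 and may belong to either gene, and that of Cdh5 lies at its alternative start. In a wider list of 25 immune genes it was 3 (12%), in a wider list of 25 endothelial genes 14 (56%), in 10 smooth muscle genes 9 (90%) and in 10 mesenchymal genes 8 (80%). In 10 oviduct epithelial genes it was 2 (20%), and in 10 genes of unrelated tissues 4 (40%). The labelled cell type thus had regions at nearly all of its listed starts, the exception being Actg2, which had an entry in 3 libraries.

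The median promoter rank, as a percent of all genes with lower values stronger, lay between 57.8 and 70.4 over the 6 libraries for the 5 immune genes and between 56.7 and 67.8 for the 5 endothelial genes, against 50.0 for all genes. It was 48.2 to 54.5 for smooth muscle, 51.2 to 54.8 for mesenchymal, 63.9 to 65.4 for epithelial and 59.0 to 62.0 for the wider endothelial list. For the wider immune list it was 68.2 to 71.1 in 5 libraries and 100 in WT library 2, where 11 of the 25 genes had an entry. For the genes of unrelated tissues it was 69.6 to 84.8 in 5 libraries and 100 in WT library 2. By genotype the immune genes had a median of 68.5 ± 3.14 in the WT and 61.2 ± 5.21 in the Pbrm1 cKO libraries, and that of the endothelial genes 61.0 ± 5.94 and 59.6 ± 3.08 (SD, n = 3 each). With 5 genes the median is the value of 1 gene, and for the immune genes this was Spi1 in all 6 libraries. The immune values by genotype therefore repeat the start ranks of Spi1 and are no separate result. The genotype ranges overlapped for both groups of genes. With 1 start per gene the direction for the immune genes turned, to 64.6 ± 2.92 in WT against 88.1 ± 20.6 in Pbrm1 cKO libraries.

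The best and worst genes of the wider lists show the spread within each cell type. In the wider immune list Irf8, Coro1a and Lcp1 ranked best, with a region at all 3 starts, and Cd79a, Nkg7 and Cd3e were among the 5 genes without an entry in any library. In the wider endothelial list Esam, Prox1 and Lmo2 ranked best, and Robo4, Nos3 and Plvap worst, with no entry for Nos3 and Plvap. Of the 25 wider immune genes 1 was called higher in Pbrm1 cKO libraries and 0 lower, and of the 25 wider endothelial genes 0 were called, with 1 and 2 at an unadjusted p under 0.05. Over all genes limma called 0.406%, and 5.96% had an unadjusted p under 0.05. The called gene, named after its values were seen, was Itgam, the CD11b integrin of myeloid cells, with no entry in any WT library and ranks of 14786, 14632 and 14766 in Pbrm1 cKO libraries (difference 0.57, SE 0.0047, limma adjusted p = 7.44e-06). It had no merged region at a start, and its entries held 8 tags in each Pbrm1 cKO library. Its SE is small because the WT libraries share the lowest rank and the Pbrm1 cKO ranks nearly coincide. With entries taken within 2.5 kb of a start the difference was 0.36 and did not pass (limma adjusted p = 0.719), and it passed with any 1 library left out (4.69e-06 to 0.000163). Leaving out a library keeps the shared lowest rank and the close Pbrm1 cKO ranks, so these passes are no separate check. Itgam, with an entry in 3 libraries, was not in the fit of genes with an entry in all 6. No gene of the smooth muscle, mesenchymal, epithelial or unrelated lists was called in limma, with 1 at an unadjusted p under 0.05, in the smooth muscle list.

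**Figure D2:**
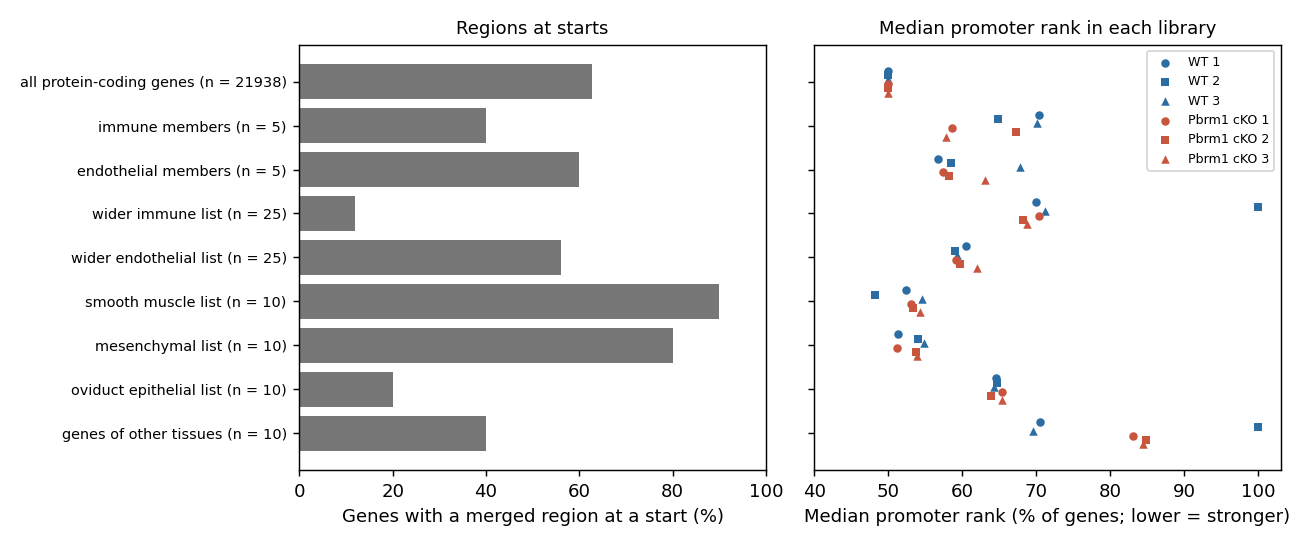
Left, percent of genes in each list with a merged region within 1 kb of a start; right, median promoter rank of each list as a percent of all genes in each of 3 WT (blue) and 3 Pbrm1 cKO (red) libraries, lower being stronger. The bars reach 90% for smooth muscle, 60% and 40% for the endothelial and immune members and 12% for the wider immune list.

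Next, the regions in the 10 windows were located, to see which of them belong to the genes. The immune windows held 20 regions and the endothelial windows 20, of which 29 were in the reproducible lists of both genotypes, 3 in the WT list only and 8 in the Pbrm1 cKO list only. The member was the gene with the nearest start at 8 of 20 immune and 17 of 20 endothelial regions. Only 6 regions lay at a start of the member, 2 of them at Csf1r and 1 each at Cd68, Pecam1, Cdh5 and Tek. Per 100 kb of window, Cd68 had 22.8 regions, Aif1 19.9 and Csf1r 13.6, which is more than 98.5%, 97.2% and 90.1% of all protein-coding genes. Ptprc had 0.753, Emcn 0.900 and Tie1 2.57, at percentiles of 23.5, 23.9 and 33.3. Spi1, Tek, Cdh5 and Pecam1 lay between, with 3.75, 3.21, 6.36 and 7.73.

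**Figure D3:**
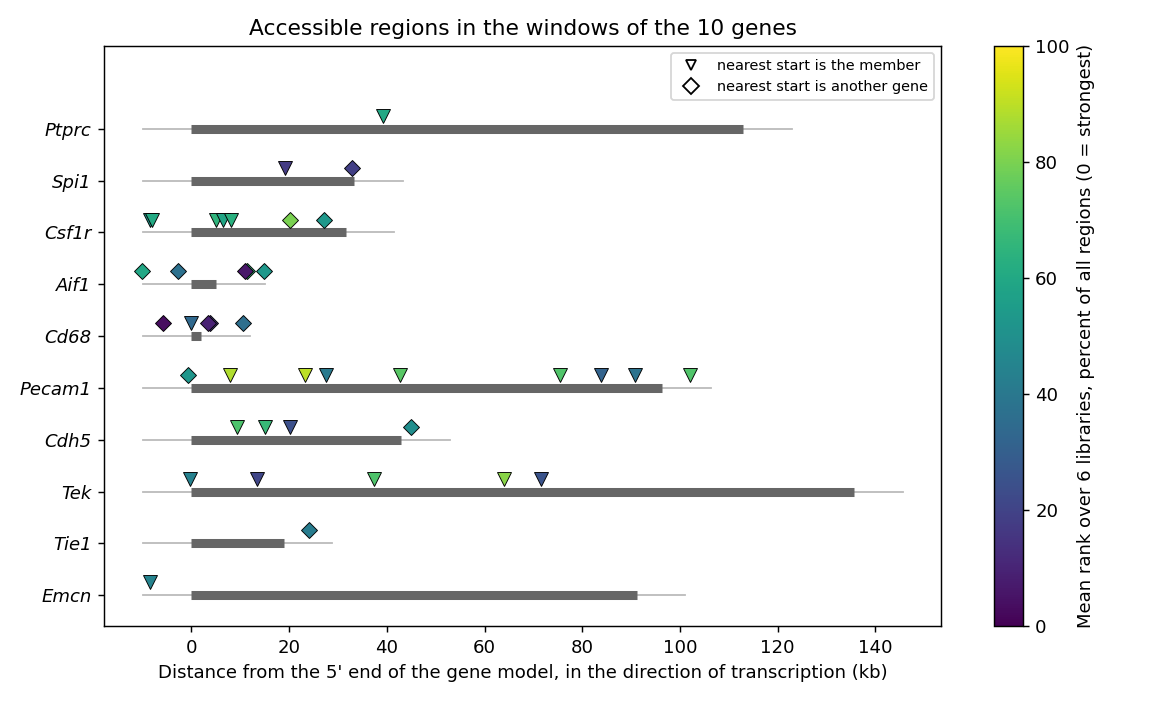
Map of the 10 windows, with distance from the 5′ end of each gene model in kb along the horizontal axis, gene bodies as thick bars and regions as symbols coloured by mean rank over 6 libraries in percent (0 strongest). All 5 regions of the Aif1 window and 4 of 5 of the Cd68 window lie nearest to another gene (diamonds), whereas those of Tek lie nearest to Tek itself (triangles).

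In the dense windows of Cd68 and Aif1 the strongest regions lay at the starts of neighbouring genes. Ranked among 66678 merged regions, the best of the Cd68 window covered the start of Eif4a1, a translation initiation factor used by all cells, with ranks of 2114, 2119 and 2548 in WT and of 2552, 2328 and 2154 in Pbrm1 cKO libraries. The best of the Aif1 window covered the start of Prrc2a, with ranks of 4473, 4143 and 4681 in WT and of 5278, 3116 and 3100 in Pbrm1 cKO libraries. Over all windows, the 15 regions nearest to another gene had a median mean rank at 41.6% of the regions, and the 25 nearest to their member at 60.1%. Of the former 5 and of the latter 3 were in the best 25%.

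Those 3 were the Spi1 intron, a Tek intron and a Cdh5 intron. The Spi1 region (chr2:91101447-91101711) was the strongest region of any immune gene's own, with ranks of 9476, 11376 and 12101 in WT and of 13161, 11060 and 12096 in Pbrm1 cKO libraries. It lies 4667 bp from the nearest Spi1 start and held 26 to 51 tags. The start itself had no merged region. A second region of the window, in an exon at the end of Spi1 and nearest to the start of Mybpc3, had ranks of 6966 to 14709. The Tek intron region (chr4:94752309-94753090) had ranks of 15809, 8907 and 20843 in WT and of 11773, 10949 and 15509 in Pbrm1 cKO libraries. The Cdh5 intron region (chr8:104121363-104122234) had ranks of 11989, 18995 and 14687 in WT and of 10816, 25744 and 14830 in Pbrm1 cKO libraries.

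Ptprc was the opposite case, with 1 region in a window of 132848 bp. This intronic region (chr1:138136315-138136769) had ranks of 35198, 38394 and 43294 in WT and of 40899, 38811 and 43908 in Pbrm1 cKO libraries, below the middle of all regions in every library. It held 10 to 21 tags. Of the 39 relaxed-list entries in the Ptprc window over the 6 libraries 28.2% lay on this region, against 61.0% of the 965 entries in all windows and 88.6% in the Aif1 window. Per library the Ptprc window held 6, 8 and 3 entries in WT and 7, 9 and 6 in Pbrm1 cKO libraries.

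Csf1r, on chromosome 18, had 7 regions, with mean ranks at 53.4% to 80.0% of all regions. The region over its start had ranks of 61656, 55534 and 25864 in WT and of 30230, 39312 and 48083 in Pbrm1 cKO libraries, and that in an intron 870 bp away ranks of 30232, 29580 and 48664 in WT and of 49877, 42261 and 33866 in Pbrm1 cKO libraries. In WT library 3 and Pbrm1 cKO libraries 1 and 2 the start region was the stronger, and in the other 3 libraries the intronic one. The best of the window, 8203 bp upstream of the nearest start, had ranks of 26426 to 50460. The Cd68 start region (chr11:69666048-69666562) had ranks of 30844, 12081 and 22830 in WT and of 23353, 23153 and 23290 in Pbrm1 cKO libraries. Its 30 to 66 tags made it the deepest region of any immune gene's own.

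Pecam1 had 9 regions over 116412 bp, 8 of them nearest to Pecam1. Its best intronic region (chr11:106666388-106667125) had ranks of 16390, 25685 and 19763 in WT and of 24780, 21439 and 17460 in Pbrm1 cKO libraries. The region at the start, shared with Milr1, had ranks of 28239, 26602 and 39245 in WT and of 44323, 41413 and 30722 in Pbrm1 cKO libraries. The region at the alternative Cdh5 start (chr8:104110700-104111136) had ranks of 37072, 45444 and 62972 in WT and of 40133, 42920 and 57702 in Pbrm1 cKO libraries. At the Tek start (chr4:94738587-94739498) they were 25557, 34326 and 22052 in WT and 16614, 44181 and 31045 in Pbrm1 cKO libraries, so that the best and the worst of the 6 values both came from Pbrm1 cKO libraries.

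**Figure D4:**
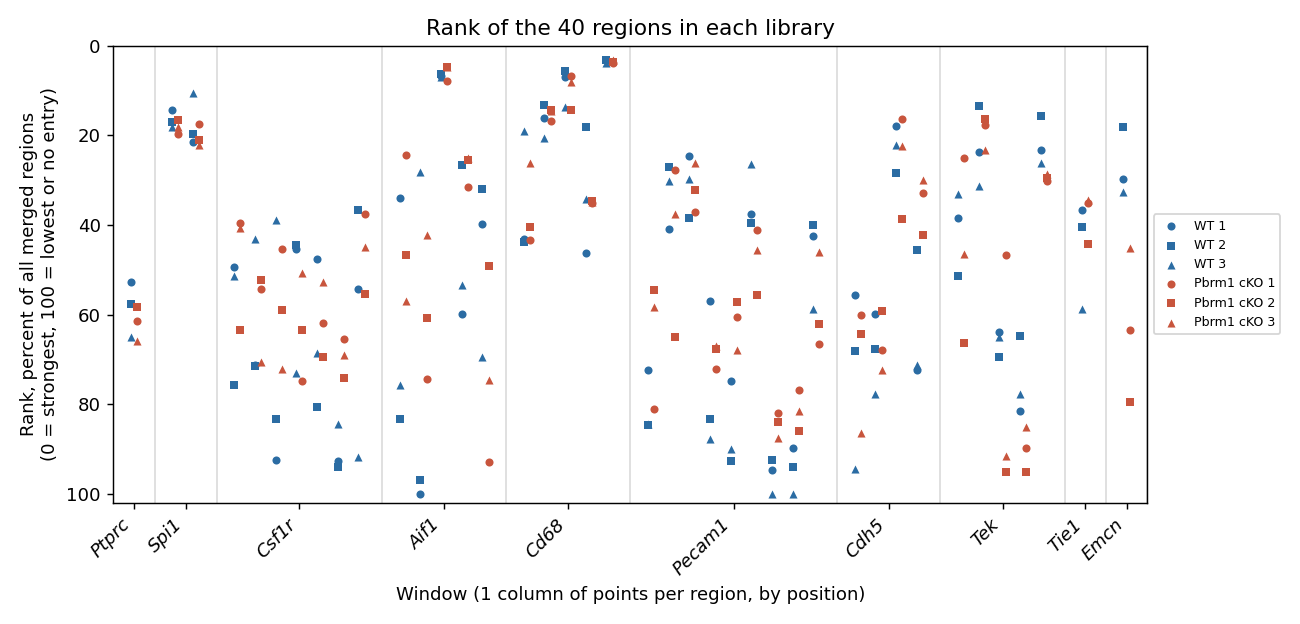
Rank of the 40 regions as a percent of 66678 merged regions (vertical axis, 0 strongest) in 3 WT (blue) and 3 Pbrm1 cKO (red) libraries, 1 column of points per region. The regions at the top belong to the Aif1, Cd68 and Spi1 windows, and the points of both genotypes overlap at 31 of the 40 regions.

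The relaxed lists of the single libraries were also counted over the windows, without the merged regions. The immune windows held 63, 69 and 65 entries in WT and 70, 76 and 74 in Pbrm1 cKO libraries, and over the endothelial windows 94, 87 and 77 in WT and 90, 100 and 100 in Pbrm1 cKO libraries. The summed immune values did not overlap and the endothelial ones did, but with entries of identical coordinates counted once the immune values overlapped too (35, 46 and 41 in WT against 43, 48 and 44 in Pbrm1 cKO libraries). Taken singly, 0 of the 10 windows had more entries in every Pbrm1 cKO library than in any WT library, against 5.55% of all gene windows. The immune bodies alone had 29, 33 and 31 entries in WT and 35, 38 and 35 in Pbrm1 cKO libraries. These are sums over chosen windows in lists capped at 300000 entries, and they were not tested.

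The genotypes were then compared at the 40 regions. limma called 46 of all 66678 regions (0.069%), 26 higher and 20 lower in Pbrm1 cKO libraries, and 0 of the 40. At an unadjusted p under 0.05 there were 4 of the 40, against 15.9% of all regions. The differences ranged from −1.23 to 0.83 with a median of 0.03, against 0.00 over all regions, and 35 of the 40 were under 0.5 in size, against 78.5% of all regions. Of the 40, 21 were higher and 19 lower in Pbrm1 cKO libraries, 11 and 9 among the immune and 10 and 10 among the endothelial regions. The groups did not overlap at 9 of the 40, 1 immune and 8 endothelial, against 21.4% of all regions. Every Pbrm1 cKO library was above every WT library at 5 of them (10.6% of all regions) and below at 4 (10.8%).

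The region with the smallest adjusted p was the only one of the Emcn window, 7791 bp upstream of its nearest start (chr3:137331983-137333276). It had ranks of 19860, 12094 and 21728 in WT and of 42294, 53078 and 30132 in Pbrm1 cKO libraries, so every Pbrm1 cKO library was below every WT library. The difference in rank score was −1.23 (SE 0.35, limma adjusted p = 0.114), from a score of 1.94 ± 0.46 in WT to 0.71 ± 0.41 in Pbrm1 cKO libraries (SD, n = 3 each). On this score it also did not pass with any 1 library left out (limma adjusted p from 0.115 to 0.326). When ranks were turned into normal scores, a scale on which 2.33% of all regions were called, it passed the threshold (limma adjusted p = 0.0404). The normal scores were not fitted again with a library left out. Its summits held 40, 47 and 20 tags in WT and 24, 16 and 27 in Pbrm1 cKO libraries, and by tags WT library 3 lay among the Pbrm1 cKO libraries. No other region of an endothelial gene's own differed by as much as 0.5, and the start of Emcn gave a difference of −0.01 (SE 0.24, limma adjusted p = 1.00).

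The other 3 regions at an unadjusted p under 0.05, named after their values were seen, were higher in all Pbrm1 cKO libraries. They lay downstream of Cdh5 and nearest to Gm45663 (0.83, SE 0.32, limma adjusted p = 0.213), in an exon of Csf1r nearest to Mir6983 (0.38, SE 0.15, limma adjusted p = 0.223) and in an intron of Pecam1 (0.47, SE 0.18, limma adjusted p = 0.226). The Cdh5 region had ranks of 48266, 30388 and 47515 in WT and of 21973, 28092 and 19897 in Pbrm1 cKO libraries. The Csf1r and Pecam1 regions were weak, with 7 to 19 and 6 to 23 tags, and both were in the Pbrm1 cKO list only. Being listed in 1 genotype went with the sign of the difference, since all 8 regions of the Pbrm1 cKO list only were higher there and 0 of 3 of the WT list only were. The lists and the ranks come from the same reads, so this is no separate evidence.

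Within 1 gene the differences went in both directions. In the Pecam1 window, 3 regions had every Pbrm1 cKO library above every WT library and 1, in an intron (difference −0.48, SE 0.32, limma adjusted p = 0.496), had every one below. All 3 higher regions were in the Pbrm1 cKO list only, so they were listed through the genotype in which they are high. In Tek, 2 intronic regions were lower in every Pbrm1 cKO library, with differences of −0.28 (SE 0.14, limma adjusted p = 0.357) and −0.47 (SE 0.33, limma adjusted p = 0.520), while the stronger intronic region gave 0.18 (SE 0.37, limma adjusted p = 0.859). The Tek region at −0.28 was in the WT list only, and that at −0.47 in both lists. At the 6 start regions the differences were 0.21 and −0.24 at Csf1r, −0.19 at Cd68, −0.31 at Pecam1, 0.03 at Cdh5 and −0.08 at Tek, and the libraries of the genotypes overlapped at all 6. The own regions of Spi1 and Ptprc gave −0.14 (SE 0.33, limma adjusted p = 0.880) and −0.08 (SE 0.25, limma adjusted p = 0.909).

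**Figure D5:**
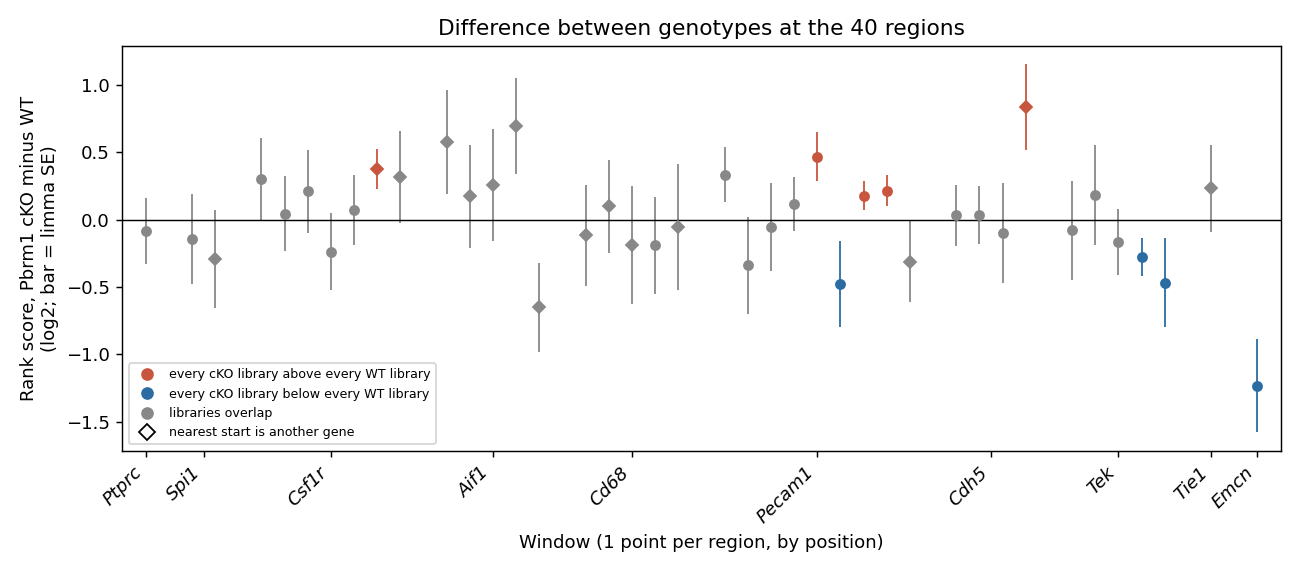
Difference in rank score between genotypes (Pbrm1 cKO minus WT, log2, vertical axis) with the limma SE as a bar for each of the 40 regions, coloured where every library of 1 genotype lies above every library of the other. The Emcn region is the lowest at −1.23 and a region downstream of Cdh5 the highest at 0.83, and no region passed the threshold.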

How the data were processed

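The measurements were ATAC-seq peak lists of 6 libraries, grouped by their labels into 3 WT and 3 Pbrm1 cKO. The authors used version 1.9.0 of the ENCODE ATAC-seq pipeline (cutadapt, Bowtie2 and MACS2, named in the submitters' processing notes and the methods) on GRCm38. They deposited, per library, a relaxed list (MACS2 p threshold 0.01) capped at 300000 entries, and, per genotype, 1 pooled list of peaks past an irreproducible discovery rate of 0.05. The pooled list gives no values per replicate, so no test was made on it. Deposited values are the fold of the summit over local background (a ratio), a −log10 p-value and a −log10 q-value. They hold no read counts, so total depth is unknown, and no interval for counting error was made.

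Both pooled lists were merged into 66678 regions. Regions and the promoters of 21938 protein-coding genes (within 1 kb of any GENCODE M21 start) were ranked in each library by the highest −log10 p among entries that overlap them by at least 1 bp, with no entry as the lowest rank. Ranks do not show a shift common to a whole library. limma 3.58.1 in R 4.3.3 (lmFit, eBayes with a trend, genotype only) was fitted to log2(number / rank) over all features, with Benjamini-Hochberg adjustment and a threshold of 0.05, and was tested on simulated data, where it called more unchanged promoters, though not more unchanged regions, than the nominal rate. Genes without an entry in any library have no variance in that fit. The study counted reads in merged peaks for its genotype comparison, and ranks take their place here. Tags over a summit were recovered from fold and p, and were whole within a relative error of 0.0001 in at least 99.95% of 2000 entries checked per library. Sequences were read from the GRCm38 RefSeq genome, whose chromosome lengths the lists respect, and those of chromosome 18, like the single region of the Tie1 window, are not reported here.

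Replicates are biological per the study, and which animals they share is not stated. Same-numbered libraries did not deviate together (correlations of −0.00282, −0.0548 and 0.00933), so numbers were not used as pairs. The 10 genes, the other lists and the tests were chosen with earlier results of these data known. The rule for named regions took those within 1 kb of a member's start, the best-ranked of each window and any past the threshold. Other regions (in the Spi1, Csf1r, Pecam1, Cdh5 and Tek windows) were named after their values were seen. Of other lists the rule gave counts and at most 3 best and 3 worst genes. Alternatives were ranks by fold, normal scores, other distances and windows, stricter entries, entries in all libraries, each library left out and a replicate block. All sample columns were used.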

Additional observations from a re-analysis of the deposited data

How the results depend on the processing

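Of 154 values under alternatives, 125 kept their direction and side of the threshold or stayed within their limits. For the others the cause was not tested unless stated. Against 46 called regions, 7 were called when ranked by fold, 1552 with normal scores (662 higher and 890 lower, in place of 26 and 20) and 130 with the replicate block, where the numbers do not pair the libraries. With 1 library left out it was 2 to 25, the latter without WT library 3 (6 higher and 19 lower) and the former without Pbrm1 cKO library 1 or 2. Among the member regions 0 were called under every alternative run, except that normal scores called 1 (Emcn, −0.98 on that scale). On the log2 rank score the Emcn difference was −1.45 to −0.97 with 1 library left out. Against 89 called promoters, 6 were called among genes with entries in all 6 libraries, 24 with the replicate block and 119 to 151 with 1 library left out (139 without WT library 1 or 3, 151 without WT library 2, 137 without Pbrm1 cKO library 2). The members had 0 calls, or 0 to 1 with 1 library left out (Aif1, without Pbrm1 cKO library 1).

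By construction, fewer regions lay in the immune windows with gene bodies alone (9) or 5 kb (12), and in the endothelial windows with the upper part of each pooled list (12). The mean number of entries per library in the immune windows was 31 (WT) and 36 (Pbrm1 cKO) for gene bodies and 40.7 and 45.0 for distinct intervals. The median promoter rank of the immune genes was 72.0% in WT with 2.5 kb, 64.6% in WT and 88.1% in Pbrm1 cKO libraries with 1 start per gene (which turns its direction), and 67.5% to 70.3% in WT and 58.2% to 62.9% in Pbrm1 cKO libraries with 1 library left out. For the endothelial genes it was 57.6% to 63.1% and 57.9% to 60.7%. The low tag numbers of WT library 3 limit what can be seen at weak regions.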
